A study of Rattus norvegicus with 3 samples.

Results

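The peaks described here lie just upstream of genes: HA-TET2 peaks that the deposited annotation places in a promoter within 1 kb of a transcription start site, with a negative distance to it, so that the peak ends before the start site and does not cover it. There were 2266 such peaks among 35044 in all, 1377 of the 25521 in the Control list (5.40%, 95% interval 5.12 to 5.68) and 889 of the 9523 in the Myocd-LSD1 list (9.34%, 8.76 to 9.94). The data come from CUT&Tag, in which an antibody directs a transposase to cut and tag the DNA around a protein, here with an antibody against the HA tag in rat aortic smooth muscle cells (SMC). Both groups received an adenovirus carrying HA-tagged TET2 (Adv-HA-TET2) for 24 h, and 500000 cells went into each assay. The Control group was 2 samples of the line labelled WT, and the other group was 1 sample of the line labelled Myocd-LSD1, so the TET2 mapped was overexpressed TET2 in both. The labels do not say how the Myocd-LSD1 line was made or whether it is a single clone, and untransduced cells were not analysed here. The peaks of a group came as a single list, which leaves no error between replicates and no p-value between the conditions. Shares carry exact Clopper-Pearson intervals at 95% for counting error alone, since neighbouring peaks share a library and are not replicates. Peak lists hold no expression values, so the cell type label could not be checked against marker genes.

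TET2 is a dioxygenase that oxidises 5-methylcytosine in DNA, the first step of active DNA demethylation, and it has no CXXC domain of its own for binding unmethylated CpG. The stretch just upstream of a start site belongs to the promoter, where transcription factors bind, where nucleosomes are often depleted and where many mammalian genes carry CpG islands. Myocardin, the coactivator of SRF, drives the contractile programme of smooth muscle, and LSD1 removes mono- and dimethyl marks from lysine 4 of histone H3; dimethylation of this residue is the subject of the study's title. The comparison addressed whether HA-TET2 occupied other places in the Myocd-LSD1 line than in the control line.

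The DNA just before the start site of some of these genes is printed to show the kind of sequence there, of which the peaks may cover only a part. Carm1, Aco1 and Usp22 are among the strongest upstream peaks shared by both lists. Tmem39a had a strong peak in the Control list alone, and Scaf1 and Anp32e are the strongest in the Myocd-LSD1 list alone. Synpo2 and Actn1 are genes of the smooth muscle contractile apparatus with an upstream peak in both lists. Each line gives the 250 bases before the start site from RefSeq, 5′ to 3′ on the strand of the gene, with every CpG in capitals. The peaks were mapped on rn6 and the sequences belong to GRCr8, so that a start site may differ between the builds. Each sequence was matched by gene symbol and strand, so it may lie at another start site than the one its peak was assigned to. For Synpo2 and Scaf1 the peak was assigned to a predicted transcript and not a curated one. Peak positions below are on rn6.
Carm1, GRCr8 chr8:28373120-28373369, plus strand: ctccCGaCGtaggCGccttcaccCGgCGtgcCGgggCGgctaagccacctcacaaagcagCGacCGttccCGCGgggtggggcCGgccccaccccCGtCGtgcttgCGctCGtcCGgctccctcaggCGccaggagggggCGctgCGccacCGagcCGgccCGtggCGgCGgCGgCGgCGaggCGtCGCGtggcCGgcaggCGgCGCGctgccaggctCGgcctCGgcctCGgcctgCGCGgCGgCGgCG
Aco1, GRCr8 chr5:60055645-60055894, plus strand: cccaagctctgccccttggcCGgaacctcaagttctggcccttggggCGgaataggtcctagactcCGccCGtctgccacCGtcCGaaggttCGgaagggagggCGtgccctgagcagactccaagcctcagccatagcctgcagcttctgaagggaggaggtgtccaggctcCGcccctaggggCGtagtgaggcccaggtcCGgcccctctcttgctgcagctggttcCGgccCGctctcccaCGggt
Usp22, GRCr8 chr10:46354940-46355189, minus strand: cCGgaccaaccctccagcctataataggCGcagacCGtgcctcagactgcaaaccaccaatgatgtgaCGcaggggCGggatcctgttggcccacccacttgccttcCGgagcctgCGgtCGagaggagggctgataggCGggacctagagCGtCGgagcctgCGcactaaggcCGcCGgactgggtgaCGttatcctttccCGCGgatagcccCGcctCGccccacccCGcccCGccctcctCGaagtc
Tmem39a, GRCr8 chr11:75695487-75695736, minus strand: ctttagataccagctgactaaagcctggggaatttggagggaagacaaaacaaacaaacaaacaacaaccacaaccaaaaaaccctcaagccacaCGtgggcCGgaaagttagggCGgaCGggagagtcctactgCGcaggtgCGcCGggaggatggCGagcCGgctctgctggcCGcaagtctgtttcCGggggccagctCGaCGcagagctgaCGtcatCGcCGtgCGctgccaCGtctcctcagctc
Scaf1, GRCr8 chr1:104635033-104635282, minus strand: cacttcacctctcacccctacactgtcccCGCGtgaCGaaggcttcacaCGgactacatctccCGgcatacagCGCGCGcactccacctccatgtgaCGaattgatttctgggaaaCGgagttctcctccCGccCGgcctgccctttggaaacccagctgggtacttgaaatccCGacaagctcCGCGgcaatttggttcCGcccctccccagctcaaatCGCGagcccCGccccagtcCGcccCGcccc
Anp32e, GRCr8 chr2:186161342-186161591, plus strand: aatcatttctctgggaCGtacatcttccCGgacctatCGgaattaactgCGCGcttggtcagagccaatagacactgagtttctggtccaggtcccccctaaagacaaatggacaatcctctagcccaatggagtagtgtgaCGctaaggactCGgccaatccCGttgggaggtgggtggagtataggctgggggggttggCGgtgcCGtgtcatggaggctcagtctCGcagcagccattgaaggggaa
Synpo2, GRCr8 chr2:214055845-214056094, minus strand: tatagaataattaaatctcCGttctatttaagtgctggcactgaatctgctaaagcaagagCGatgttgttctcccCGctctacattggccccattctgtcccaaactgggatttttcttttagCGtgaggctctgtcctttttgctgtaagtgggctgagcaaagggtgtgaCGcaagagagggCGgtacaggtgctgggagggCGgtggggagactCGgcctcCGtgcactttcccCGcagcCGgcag
Actn1, GRCr8 chr6:104826173-104826422, minus strand: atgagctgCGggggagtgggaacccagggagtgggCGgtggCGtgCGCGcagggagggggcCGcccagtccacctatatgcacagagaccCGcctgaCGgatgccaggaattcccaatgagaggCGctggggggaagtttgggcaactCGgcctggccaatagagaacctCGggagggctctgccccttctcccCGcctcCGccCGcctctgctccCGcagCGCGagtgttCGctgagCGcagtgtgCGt
The 250 bases held 43 CpG for Carm1, 22 for Usp22, 21 for Scaf1, 20 for Actn1, 18 for Tmem39a, 14 for Aco1 and 11 each for Anp32e and Synpo2. The median over all 15729 windows of genes with a curated coding transcript was 12. Of the 8 stretches, those of Anp32e and Synpo2 lay below that median and the other 6 above it.

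Upstream peaks of the control line were found again in the Myocd-LSD1 line more often than peaks at large, and less often than peaks that lay across the start site itself. A Control peak is called met when a Myocd-LSD1 peak overlaps it by 1 bp or more. Of the 1377 upstream Control peaks 552 were met (40.1%, 37.5 to 42.7), against a background of 22.0% over all Control peaks. Peaks across a start site were met at 57.7% (55.9 to 59.5), which is 17.6 percentage points more (14.4 to 20.8). Peaks up to 1 kb downstream of the start site were met at 23.8% (21.8 to 26.0), 16.3 points less than the upstream ones (12.9 to 19.6). The intervals of the 3 classes do not overlap, so the upstream side stood between the start site and the downstream side. With the Control list shortened by rank to the length of the Myocd-LSD1 list, 67.0% of the upstream peaks were met, and the differences were 8.13 points to the start site and 29.7 points to the downstream side.

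In the reverse direction, 631 of the 889 upstream peaks in the Myocd-LSD1 list overlapped a Control peak (71.0%, 67.9 to 73.9), against a background of 59.4% over all Myocd-LSD1 peaks. The share was 75.7% across the start site (73.8 to 77.6) and 55.3% downstream (51.9 to 58.6). The order of the classes was the same as in Control, but here the intervals of the upstream peaks and of those across the start site touched.

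The lists differed less in their number of upstream peaks than in their length. Upstream peaks numbered 1.55 times as many in Control as in Myocd-LSD1, all peaks 2.68 times as many, peaks across a start site 1.48 times and downstream peaks 1.83 times. Among all peaks annotated as promoter within 1 kb, the upstream ones made up 23.1% in Control (22.0 to 24.2) and 23.6% in Myocd-LSD1 (22.2 to 24.9), intervals that overlap. Downstream peaks made up 27.0% in Control (25.9 to 28.2) and 23.3% in Myocd-LSD1 (22.0 to 24.7), which do not overlap. The upstream share of promoter peaks was therefore close in both lists, while the downstream share was lower in Myocd-LSD1.

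The upstream peaks of both lists were narrower than peaks across a start site, and most lay in the nearer part of the 1 kb window. From the edge of the peak to the start site the median distance was 166 bp for Control peaks and 123 bp for those of Myocd-LSD1, and the median summit lay 352 bp and 270 bp upstream. Control peaks had a median width of 296 bp and Myocd-LSD1 peaks of 262 bp, against 395 bp and 323.5 bp for peaks across a start site. Downstream peaks had medians of 291 bp and 234 bp, and all peaks of 315 bp and 250 bp. Upstream peaks were thus not narrower than downstream ones in either list, and in Myocd-LSD1 they were wider than the whole list. Deposited fold enrichment, which describes a peak within its own list, had a median of 5.32 in Control (interquartile range 4.27 to 6.84) and 5.43 in Myocd-LSD1 (4.34 to 7.15).

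**Figure D1:**
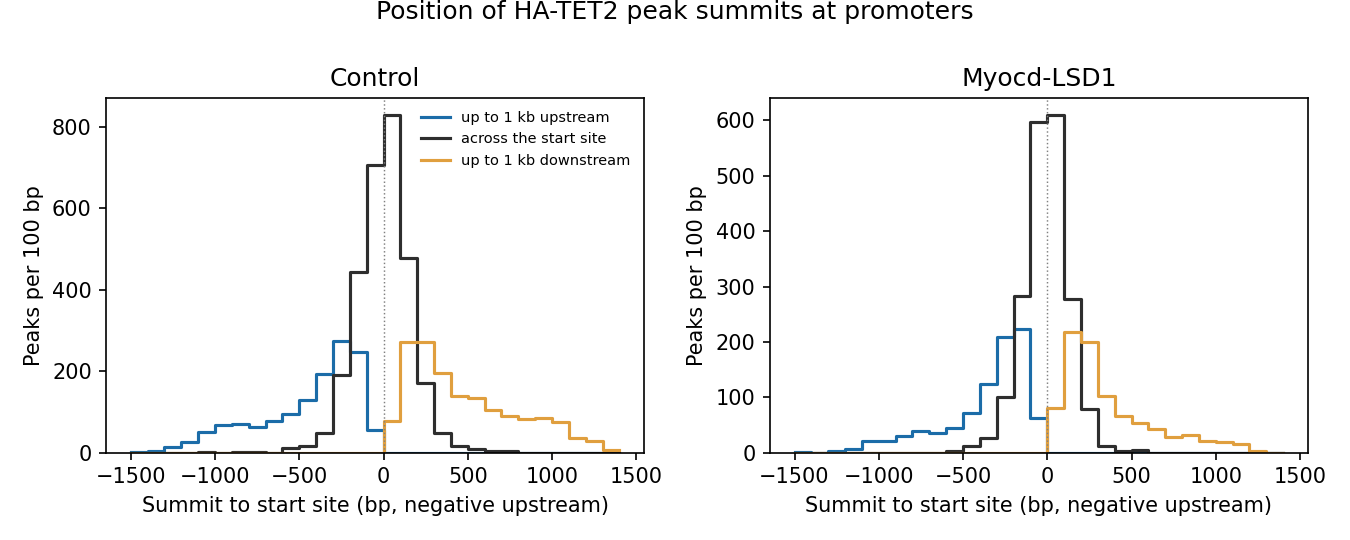
Position of peak summits relative to the assigned start site (x axis, bp, negative upstream) as the number of peaks per 100 bp (y axis), for Control (left) and Myocd-LSD1 (right), with 1 line per class of promoter peak. The summits of upstream peaks (blue) have their median 352 bp upstream of the start site in Control and 270 bp in Myocd-LSD1, with a tail that thins out with distance.

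The ends of the window show what the rule takes. In Control, Npc2 (a lysosomal cholesterol carrier) and Ehmt1 (a histone H3 lysine 9 methyltransferase) had peaks that end 1 bp before the start site, with folds of 6.51 and 5.72. At the far end, Spsb1 lay 1000 bp upstream with a fold of 4.45 and Mxi1 998 bp with 3.57, and neither was met. Just beyond it, Lsmem2 at 1001 bp (7.93) and Dok5 at 1002 bp (6.27) were left out. In Myocd-LSD1, Hes1 at 997 bp (7.37) and Cep295nl at 995 bp (4.98) lay inside the far limit. Larp1b at 1006 bp (6.56) and Dok5 at 1007 bp (4.15) lay outside it. Taking both lists, higher and lower folds thus occur on both sides of the far limit.

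Close to the start site about every other upstream Control peak was met, and the share fell with distance. It was 50.6% at 1 to 50 bp (44.3 to 56.9, 257 peaks) and 49.8% at 51 to 100 bp (43.2 to 56.4, 231 peaks). It was 43.1% at 101 to 250 bp (37.8 to 48.6) and 33.8% at 251 to 500 bp (27.7 to 40.2). Beyond that it was 24.4% at 501 to 750 bp (17.9 to 31.8, 160 peaks) and 27.0% at 751 to 1000 bp (20.1 to 34.8, 152 peaks). The nearest 2 bins and the farthest 2 do not overlap in their intervals, while neighbouring bins do. The median pile-up, the number of fragments that overlap at the summit, was 7 or 8 in every bin, so the median height of the peaks differed little with distance.

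The downstream side showed lower shares at the same distances. At 1 to 50 bp downstream 33.3% of Control peaks were met (28.3 to 38.7) and at 751 to 1000 bp 15.2% (10.5 to 21.02). Of the 6 distance bins, the intervals of the upstream and downstream sides were apart in the 4 bins up to 500 bp and overlapped in the 2 beyond. For Myocd-LSD1 the upstream share on a Control peak lay between 67.3% and 74.7% in all 6 bins, with intervals that overlap throughout. A decline with distance was thus seen in the Control peaks and was not detectable in the Myocd-LSD1 peaks, of which 49 lay in the farthest bin.

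**Figure D2:**
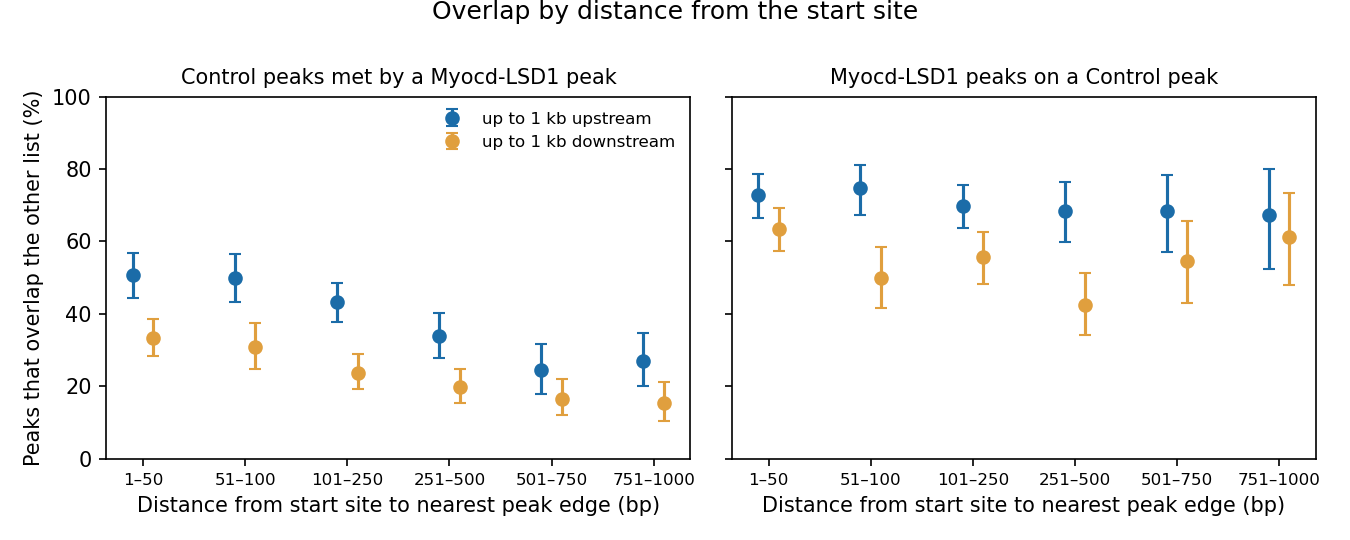
Share of peaks that overlap the other list (y axis, percent) by the distance between the start site and the nearest edge of the peak (x axis, bp), for Control peaks (left) and Myocd-LSD1 peaks (right), upstream (blue) and downstream (orange); bars are 95% exact binomial intervals. Upstream Control peaks go from 50.6% met at 1 to 50 bp to 27.0% at 751 to 1000 bp, and every upstream point lies above the downstream point of its distance.

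The libraries behind the lists differed in depth. The lowest background under the peaks, recovered from the deposited fold and p-value, was 2.77 times as high for Control (0.175 fragments) as for Myocd-LSD1 (0.0633 fragments). The median upstream pile-up was 8 fragments in Control (interquartile range 5 to 12) and 6 in Myocd-LSD1 (4 to 9). Peaks of 3 fragments or fewer made up 5.16% and 13.2% of them. With 1 list for each line, the line and the depth of its library cannot be told apart in the numbers of peaks.

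At equal pile-up the order of the classes remained. Of upstream Control peaks with up to 5 fragments 17.96% were met (14.2 to 22.2), with 6 to 10 fragments 32.6% (28.7 to 36.6), with 11 to 20 fragments 64.5% (59.0 to 69.7) and with more than 20 fragments 81.3% (72.8 to 88.0). Peaks across a start site were met at 31.2%, 52.4%, 80.4% and 85.8% in the same bins, and downstream peaks at 14.8%, 25.7%, 31.3% and 43.8%. The upstream and downstream intervals overlapped up to 10 fragments and were apart above that. In the highest bin the upstream and start-site intervals overlapped. Peak width was not held equal, and Control peaks across a start site were wider, with a median of 395 bp against 296 bp upstream. The part of width in these shares was not tested.

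The decline with distance was also present at equal pile-up. With 6 to 10 fragments, 42.5% of Control peaks within 250 bp were met (37.0 to 48.1, 320 peaks) and 19.8% of those from 251 to 1000 bp (14.99 to 25.3, 248 peaks). With 11 to 20 fragments the shares were 72.9% (66.1 to 78.9) and 51.2% (42.1 to 60.2), and with more than 20 fragments 91.0% (81.5 to 96.6) and 66.7% (51.05 to 80.0). With up to 5 fragments they were 20.8% and 12.5%, with intervals that overlap. Above 5 fragments the near and far parts of the window therefore differed beyond counting error.

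**Figure D3:**
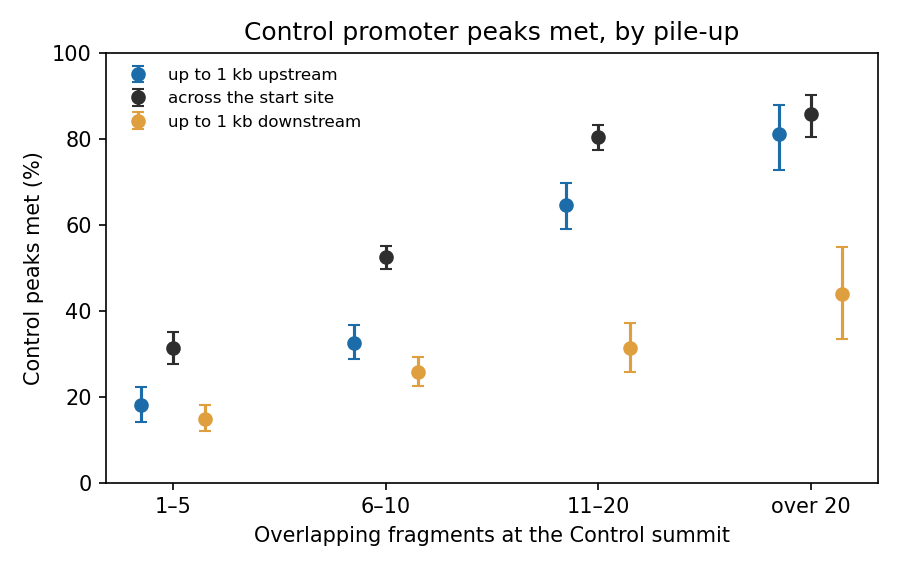
Share of Control promoter peaks met by a Myocd-LSD1 peak (y axis, percent) by the number of overlapping fragments at the Control summit (x axis), for peaks upstream (blue), across the start site (black) and downstream (orange); bars are 95% exact binomial intervals. Upstream peaks rise from 17.96% to 81.3% and lie between the other classes in all 4 bins.

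When every upstream Control pile-up was scaled down by the ratio of the background levels, 47.3% of the peaks were expected to be called and 40.0% were met (outside the mitochondrial sequence), a ratio of 0.845 (0.790 to 0.901). The ratio was 1.08 across the start site (1.04 to 1.11) and 0.559 downstream (0.510 to 0.609). It was 0.955 for upstream peaks within 250 bp (0.885 to 1.02) and 0.658 for those farther away (0.572 to 0.749). With thinning by the pile-ups of strong shared peaks, the upstream ratio was 1.10 (1.03 to 1.18), so its side of 1 depends on the scale. On that scale too the order was the same, with 1.39 across the start site and 0.742 downstream. Over all Control peaks the ratio was 0.469 (0.458 to 0.480) on the first scale and 0.613 (0.599 to 0.627) on the second, so the upstream peaks lay above the whole list on both.

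Where an upstream peak was met, the meeting peak was nearly always at the same promoter. It was assigned to the same gene for 542 of 552 met Control peaks (98.2%, 96.7 to 99.1). It was itself upstream for 423 (76.6%), lay across the start site for 110 (19.9%), in the promoter flank beyond 1 kb for 12 and downstream for 7. Seen from Myocd-LSD1, 199 of its 631 upstream peaks on a Control peak (31.5%, 27.9 to 35.3) lay on a Control peak that crossed the start site. Peaks of the same promoter thus often fell into different classes in the lists.

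The 423 pairs that were upstream in both lists lay close together. Their summits were a median of 70 bp apart, and within 100 bp of each other in 283 pairs (66.9%). The Control peak was the wider one in 284 pairs (67.1%), with medians of 384 bp and 302 bp. Over the 421 pairs outside the mitochondrial sequence the 2 deposited folds had a Spearman correlation of 0.53 and a Pearson r of 0.57 on the log2 scale. This is a correlation across peaks, which share their library and local base composition, and it carries no test.

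**Figure D4:**
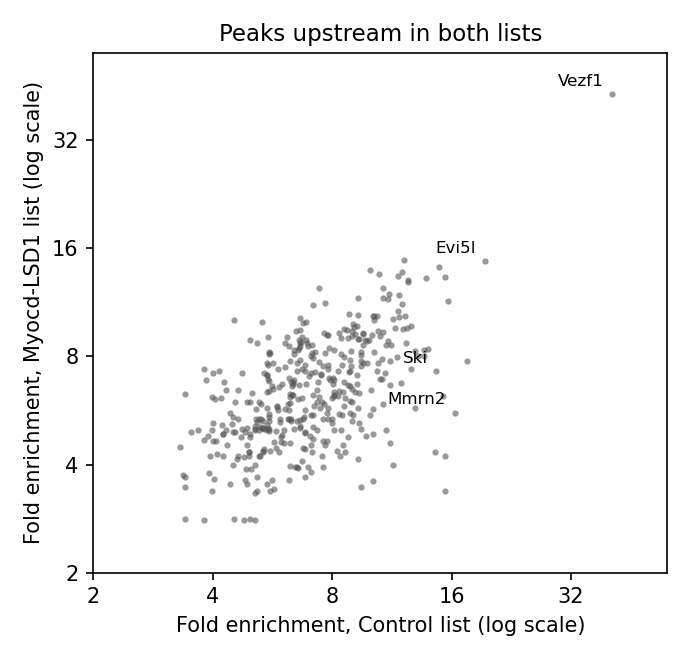
Deposited fold enrichment of the 421 overlapping pairs of peaks that were upstream in both lists, Control on the x axis and Myocd-LSD1 on the y axis, both on a log scale, with 1 point per pair. Vezf1 stands alone at 40.6 and 43.0, while Mmrn2 lies far to the right with 16.3 in Control and 5.58 in Myocd-LSD1.

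The strongest shared upstream peaks, by mean rank of fold over both lists, were found at Vezf1, Evi5l, Carm1, Aco1, Usp22 and Magi3. Vezf1, a zinc finger transcription factor first known from vascular endothelium, had the peak of highest fold in each list's upstream set (rn6 chromosome 10, 75365129 to 75365488, 275 bp upstream, fold 40.6 on 243 fragments in Control and 43.0 on 201 in Myocd-LSD1). Evi5l, a regulator of Rab GTPases, followed (chromosome 12, 2626368 to 2626855, 32 bp upstream, fold 19.4 and 14.7). Carm1, an arginine methyltransferase that acts on histone H3 (chromosome 8, 22577033 to 22577552), had folds of 14.9 and 14.2. Vezf1 stood apart from all other upstream peaks in either list.

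Aco1, the cytosolic aconitase that doubles as iron regulatory protein (chromosome 5, 56424470 to 56425005), had folds of 15.4 and 13.3. Usp22, the deubiquitinase of the SAGA complex (chromosome 10, 47453505 to 47453919), had 15.7 and 11.4. Magi3, a scaffold protein of cell junctions (chromosome 2, 206699155 to 206699484), had 13.8 and 13.2. For the 5 genes other than Vezf1, pile-ups ran from 25 to 44 fragments in Control and from 17 to 27 in Myocd-LSD1.

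The strongest upstream Control peaks that were unmet mostly lay in the far part of the window. They belonged to Lect2 (a secreted chemotactic factor, 919 bp upstream), Hoxd13 (a homeobox factor of limb and posterior patterning, 757 bp), Mslnl (mesothelin-like, 641 bp), Fam193a (795 bp), Dhrs4 (a carbonyl and retinal reductase, 437 bp) and Tmem39a (a membrane protein of the endoplasmic reticulum, 34 bp). Their folds ran from 10.3 for Tmem39a (chromosome 11, 64752548 to 64753151) to 11.3 for Lect2 (chromosome 17, 8487889 to 8488342), on 13 to 35 fragments. None of the 6 genes had a Myocd-LSD1 peak of any class. Thinned to the depth of the Myocd-LSD1 list, the chance of a call was lowest for Fam193a at 0.902 and highest for Mslnl at 0.996. These 6 were chosen for being strong and unmet, so their absence in Myocd-LSD1 is a description.

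The strongest upstream Myocd-LSD1 peaks that touched no Control peak had lower folds, and 5 of the 6 lay within 200 bp of the start site. They belonged to Scaf1 (a splicing-related partner of RNA polymerase II, chromosome 1, 101010900 to 101011074, 45 bp upstream, fold 7.90), Anp32e (a chaperone of histone H2A.Z, chromosome 2, 198040374 to 198040555, 18 bp, fold 7.76) and Phf13 (a reader of methylated lysine 4 of histone H3, 148 bp, fold 7.66). Radil, Ctdsp1 (a phosphatase of the RNA polymerase II tail) and Smad7 (the inhibitory Smad) followed with 7.37, 7.37 and 7.15. Their pile-ups were 9 to 16 fragments, and Smad7 was the exception in distance, at 834 bp. Of these genes Phf13 had no Control peak of any class and the other 5 had 1 each, none of them within 1 kb of a start site.

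Nearly all genes carried a single upstream peak. In Control 1320 of 1348 genes had 1, 27 had 2 and 1 had 3, and in Myocd-LSD1 877 of 883 genes had 1 and 6 had 2. Rarg, the retinoic acid receptor gamma, was the gene with 3 in Control, at 52, 142 and 374 bp from start sites on chromosome 7, of which those at 52 and 142 bp were met. Abl2, a tyrosine kinase of the actin cytoskeleton, had 2 in each list, at start sites on chromosome 13 with Control peaks at 74154026 to 74154496 (fold 4.71) and 74216329 to 74216823 (fold 8.04), and all were met. With both lists held to a −log10 q of at least 3, the weaker Abl2 peak and the Rarg peak at 142 bp were unmet, and with a reciprocal overlap of 50% the Rarg peak at 52 bp. Wdr62, a spindle pole protein, also had 2 in each list, at 2 places of rn6 chromosome 1 under the same symbol and on opposite strands. The 2 places may share reads, so these values are uncertain.

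Most genes with an upstream peak had no peak of the neighbouring classes in the same list. The same was not counted for genes of those classes, so it cannot be called particular to upstream peaks. Of the 1348 Control genes 1196 (88.7%, 86.9 to 90.4) had no peak across or downstream of a start site within 1 kb in the same list, and in Myocd-LSD1 it was 832 of 883 (94.2%, 92.5 to 95.7). At the level of genes, 433 had an upstream peak in both lists, 32.1% of the Control genes (29.6 to 34.7) and 49.0% of the Myocd-LSD1 genes (45.7 to 52.4). The share of Control genes with a peak of the same class in Myocd-LSD1 was 43.4% across the start site (41.6 to 45.3) and 19.7% downstream (17.8 to 21.8). With the Control list shortened, the upstream share was 55.6%. Counting any Myocd-LSD1 peak within 1 kb of a start site, 619 of the 1348 Control genes had one (45.9%, 43.2 to 48.6), against a background of 47.4% for all genes with a Control peak within 1 kb. This share is near the background and is no result about upstream peaks. Of the 825 unmet Control peaks, 106 (12.8%) belonged to a gene with a Myocd-LSD1 peak elsewhere within 1 kb of a start site, and 554 (67.2%, 63.8 to 70.4) to a gene with no Myocd-LSD1 peak of any class. These shares were not computed for the other classes or the whole list, so they cannot be called particular to upstream peaks. Fewer genes had a peak of any class in Myocd-LSD1 (7579) than in Control (13312).

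Control peaks of non-coding transcripts were met less often than those of coding ones, upstream and across the start site alike. By the accession of the assigned transcript, 160 upstream Control peaks lay at non-coding RNAs (11.6%, 10.0 to 13.4), against 6.32% of peaks across a start site (5.47 to 7.25) and 14.0% of downstream ones (12.4 to 15.8). Of these 160, 38 were met (23.8%, 17.4 to 31.1), and of the 1214 at protein-coding transcripts 511 (42.1%, 39.3 to 44.9). Across the start site the shares were 45.2% at non-coding (38.0 to 52.6) and 58.5% at coding transcripts (56.6 to 60.3), and downstream 19.5% (14.5 to 25.2) and 24.5% (22.2 to 26.8), where the intervals overlap. In Myocd-LSD1 71 upstream peaks (7.99%, 6.29 to 9.97) lay at non-coding RNAs. Of these 63.4% lay on a Control peak (51.1 to 74.5), an interval that overlaps that of the coding ones (71.6%, 68.3 to 74.6).

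The bases before the start site of these genes were rich in CpG. The comparison was limited to genes with a curated coding transcript, of which 530 of 643 in Control (82.4%) and 387 of 465 in Myocd-LSD1 (83.2%) had a RefSeq promoter window; with all genes the match was too low to be used. The median window of 250 bases held 20 CpG in both lists (interquartile range 14 to 27 and 15 to 27), against 12 over all such promoters (4 to 21) and 10 over promoters with no peak within 1 kb in either list (3 to 19). The median GC content was 64.2% in Control and 64.4% in Myocd-LSD1, against 57.2% over all. Promoters of genes with a peak across the start site had 19 CpG in both lists, so CpG richness was shared with that class.

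Within the upstream Control peaks, those met lay at promoters with more CpG. Met peaks had a median of 21 CpG (16 to 28) and unmet ones 18 (11 to 26). At promoters with under 10 CpG 23.9% of the upstream peaks were met (14.6 to 35.5, 71 peaks), at 10 to under 20 CpG 44.1% (36.6 to 51.7, 177 peaks) and at 20 or more 55.7% (49.8 to 61.6, 287 peaks). The median pile-ups of these groups were 7, 7 and 8 fragments. The median distance to the start site moved too, from 280 bp in the group poorest in CpG to 121 and 128 bp in the others.

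With the distance held within 250 bp the same order was seen, at 23.5% (10.7 to 41.2, 34 peaks), 47.7% (38.8 to 56.7, 128 peaks) and 61.2% (54.3 to 67.9, 209 peaks). The median distances were then 78, 77 and 93 bp. The intervals of the lowest and the highest group were apart, and both overlapped the middle one. The part of distance, pile-up and base composition in these shares was not tested further.

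**Figure D5:**
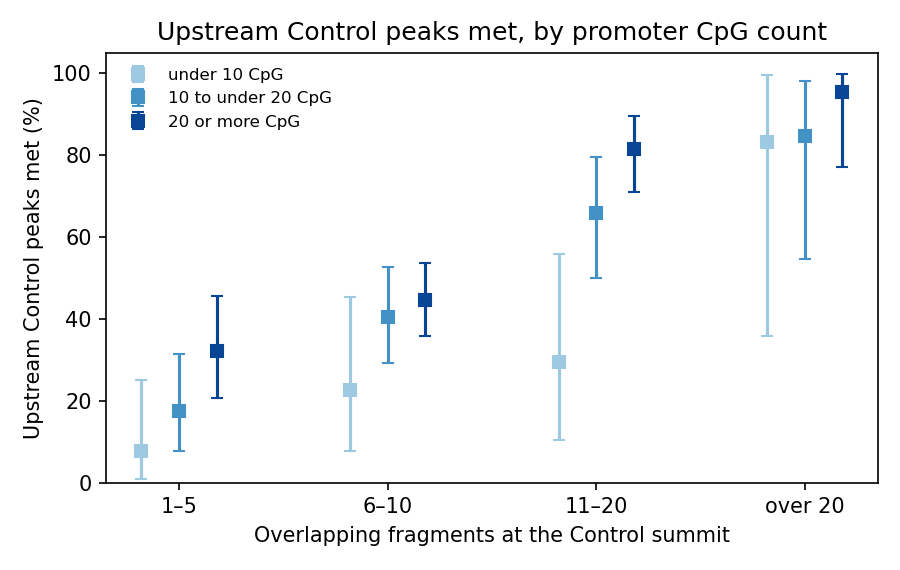
Share of upstream Control peaks met (y axis, percent) by overlapping fragments at the summit (x axis), for genes with a curated coding transcript in 3 groups of CpG count in the 250 bases before the start site; bars are 95% exact binomial intervals. With 11 to 20 fragments the shares are 29.4%, 65.9% and 81.6% from few to many CpG, and with more than 20 fragments the groups are small and their intervals overlap.

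Short promoter motifs were counted in the same windows on both strands. The GC box (GGGCGG, the core of Sp and KLF sites, which itself holds a CpG) was found in 69.0% of Control windows (65.0 to 72.9, 381 of 552) and 73.9% of Myocd-LSD1 windows (69.3 to 78.1), against 47.0% of all 15729. It was found in 76.3% of windows of met peaks (70.7 to 81.3) and 62.4% of unmet ones (56.6 to 67.9). For peaks within 250 bp of the start site the shares were 80.2% (74.0 to 85.5) and 68.3% (61.0 to 75.1), with intervals that overlap. The TATA box (TATAAA) was found in 5.43% of Control windows (3.70 to 7.67) and 11.2% of all. The GC box was thus more frequent and TATAAA less frequent before these start sites than over all promoters, beyond counting error. Both were shared with genes that had a peak across the start site. There the GC box was found in 67.4% of Control and 71.3% of Myocd-LSD1 windows, and TATAAA in 5.10% and 3.95%.

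CCAAT and the TEAD site also stood apart from all promoters. CCAAT was found in 40.6% of Control windows (36.5 to 44.8) and 44.7% of Myocd-LSD1 windows (39.8 to 49.8), against 35.4% of all (34.6 to 36.1). GGAATG (a TEAD site) was found in 7.25% (5.23 to 9.74) and 6.28% (4.11 to 9.13), against 10.6% of all (10.2 to 11.1). CCGGAAG (an ETS site) was found in 12.7% of Control windows (10.02 to 15.7) and 16.1% of Myocd-LSD1 windows (12.6 to 20.1), against 11.1% of all (10.6 to 11.6), so only the Myocd-LSD1 share was apart from all promoters. For genes with a peak across the start site, CCAAT was found in 42.1% and 43.7%, and CCGGAAG in 18.9% and 17.8%. CCAAT was thus shared with that class. GGAATG was found there in 9.20% and 11.3%, with intervals that held the share of all promoters.

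The intervals of the other motifs in Control and Myocd-LSD1 held the share of all promoters. CACGTG (the E-box) was found in 8.70% and 9.30%, against 6.95% of all. TGANTCA (the AP-1 site, any base at N) was found in 3.99% and 4.52%, against 5.57%, and TGACGTCA (the CRE) in 2.90% and 2.26%, against 2.36%. The CArG box, bound by SRF, was found in 7 Control windows (1.27%, 0.511 to 2.60) and 9 Myocd-LSD1 windows (2.26%, 1.04 to 4.25), against 1.24% of all (1.07 to 1.43). In the 97 windows of Myocd-LSD1 peaks that touched no Control peak it was found in 5 (5.15%, 1.69 to 11.6), a count of few windows among the 9 motifs examined in several sets. CACGTG was in 11.8% of windows of met peaks (8.18 to 16.4) and 5.76% of unmet ones (3.39 to 9.07), with intervals that overlap. A match describes the letters of the window and is not a bound site.

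Synpo2 and Actn1 were the smooth muscle contractile genes with an upstream peak in both lists. Over all genes with a peak of any class in the same list, 10.1% had an upstream one in Control and 11.7% in Myocd-LSD1. The gene lists below are counted over all their genes, so their counts cannot be set directly beside these shares. The counts are small and are given as a description. Of the 38 contractile genes, 31 of them with a peak in either list, 4 had an upstream peak in Control and 3 in Myocd-LSD1. Of the 4 Control peaks, 2 were met. Synpo2 (synaptopodin 2, an actin-binding protein) had folds of 10.2 on 24 fragments in Control (chromosome 2, 227303678 to 227304160, 73 bp upstream) and 10.1 on 15 in Myocd-LSD1. Actn1 (α-actinin 1, an actin cross-linker) had 7.52 on 13 fragments (chromosome 6, 103470577 to 103471149, 80 bp upstream) and 7.11 on 9. The other Control peaks, at Myl9 (a regulatory myosin light chain, fold 3.36, 254 bp upstream) and Cald1 (caldesmon, fold 3.20, 719 bp), rested on 3 fragments each. After thinning, their chances of a call were 0.298 and 0.0473, so a difference was not detectable at this depth. Cald1 also had 1 Myocd-LSD1 peak within 1 kb of a start site, which lay elsewhere. Myl6 (the essential light chain) had an upstream peak in Myocd-LSD1 alone, with a fold of 4.32 on 6 fragments, and its 1 Control peak within 1 kb lay elsewhere.

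Of the 31 smooth muscle transcription factors listed, 6 had an upstream peak in Control and 5 in Myocd-LSD1, with 3 of 6 Control peaks met. Mkl1 (a myocardin-related coactivator of SRF) had folds of 7.59 and 3.93, Wwtr1 (TAZ, an effector of Hippo signalling) 7.59 and 5.36, and Smad2 (a mediator of TGF-β signalling) 6.43 and 6.90. With both lists held to a −log10 q of at least 3, Mkl1 was unmet. Elk1, Mkl2 and Myocd had unmet Control peaks with folds of 5.99, 3.69 and 3.52 on 7, 4 and 4 fragments, and their chances of a call after thinning were 0.494, 0.138 and 0.138. Rbpj (the nuclear effector of Notch) had an upstream peak of fold 6.86 in Myocd-LSD1 that touched no Control peak, and Smad3 one of 4.78 that lay on a Control peak across the start site. The 1 Control peak of Rbpj within 1 kb of a start site lay elsewhere. In both smooth muscle lists 1 in 2 Control peaks was met, on counts too small to set beside the 40.1% of all upstream peaks.

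Signalling and cytoskeletal lists were of the same small size, too small to set beside the 40.1% met over all upstream Control peaks. Of 30 TGF-β and BMP genes 4 had an upstream Control peak and 2 of these peaks were met, those of Ski (a corepressor of Smads, fold 14.6 on 29 fragments and 7.29 on 10) and Bmpr2 (a BMP receptor, 5.32 and 5.06). Id1, a target of BMP signalling, had 7.97 on 13 fragments in Control and no overlapping Myocd-LSD1 peak. Of 35 actin cytoskeleton genes 3 had one, Limk1 (the kinase of cofilin, fold 9.80 and 8.82), Rock2 (a kinase that promotes actomyosin contraction, 6.84 and 5.66) and Ssh1 (a cofilin phosphatase, 5.31 and 5.36), and all 3 were met. Diaph1, a formin, had an upstream peak of fold 5.90 in Myocd-LSD1 alone. Of the 23 early SRF and AP-1 targets 4 had an upstream Control peak and 2 were met, those of Egr1 (5.87 and 6.56) and Jund (5.41, on a Myocd-LSD1 peak of 7.18 across the start site), while Fosl2 (5.59) was unmet. Junb had an upstream Myocd-LSD1 peak (5.52) that lay on a Control peak beyond 1 kb.

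Hdac2 and Kmt2e were among the chromatin genes with an upstream peak. The counts below are too small to set beside the 40.1% met over all upstream Control peaks. Of 26 genes for lysine 4 methylation of histone H3 and its removal, 4 had upstream Control peaks, 5 peaks in all, and all 5 were met. They included Hdac2 (a histone deacetylase of the CoREST complex, fold 10.3, on a Myocd-LSD1 peak of 5.99 across the start site) and Kmt2e (related to the lysine 4 methyltransferases), whose Control peaks of 5.16 and 6.09 lay on 1 Myocd-LSD1 peak of 5.73. Setd1b, also in this list, was assigned through a non-coding transcript on chromosome 1, and its symbol was not checked, so it is uncertain. With a reciprocal overlap of 50% the peaks of Hdac2 and Kmt2e were unmet, and with both lists held to a −log10 q of at least 3 that of Setd1b. Of 22 DNA methylation genes only Zbtb38 (a reader of methylated DNA) had an upstream Control peak (4.93 and 4.34), which was unmet under either of these alternatives. In Myocd-LSD1 4 had one, among them Mbd3 (a NuRD subunit, fold 10.6, on a Control peak of 7.44 across the start site), Mbd1 (4.15) and Uhrf1 (the partner of DNMT1 at replicating DNA, 3.78). The peaks of Mbd1 and Uhrf1 touched no Control peak and rested on 4 fragments each.

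Genes of basic cell functions gave mixed results, on counts too small to set beside the 40.1% met over all upstream Control peaks. Of 36 cell cycle genes 4 had an upstream Control peak, 2 of them met, with E2f3 (a transcription factor of S phase entry) at folds of 9.22 and 6.72. Ccna2 (cyclin A2, fold 7.56) and Cdkn1b (a CDK inhibitor, 4.92) were upstream in Myocd-LSD1 and lay on Control peaks across the start site, while Cdkn2c (another CDK inhibitor, 6.84) touched none. Of 36 splicing genes 6 had one and 4 were met, with U2af2 (a subunit that recognises splice acceptor sites) at folds of 8.31 and 5.54. Hnrnpc (an RNA-binding protein, 7.27) and Snrpa (an snRNP protein, 9.13) were upstream in Myocd-LSD1 and lay on Control peaks across a start site. Of 19 housekeeping genes 2 had one, with Rpl13a met (9.32 and 5.74) and Polr2a unmet (5.57). In Polr2a an upstream peak was called in each list without overlap, 525 bp from the start site in Control and 134 bp in Myocd-LSD1. Pgk1 (4.99) was upstream in Myocd-LSD1 alone, and Ppia (5.49) lay on a Control peak across the start site. Of 35 respiratory chain genes Cox5a had the only upstream Control peak (4.42), and Atp5b (6.99) and Ndufs7 (4.51) had the upstream Myocd-LSD1 peaks; all 3 overlapped the other list across the start site, though Cox5a did not with a reciprocal overlap of 50%.

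Lists of fate regulators and of other cell types were also examined, on counts too small to set beside the 40.1% met over all upstream Control peaks. Of 43 homeobox and fate genes, 18 of them with a peak in either list, Hoxa7 (fold 5.16) and Hoxd3 (4.13) had upstream Control peaks, on 6 and 4 fragments, and no gene of the list had one in Myocd-LSD1. After thinning, the chances of a call for Hoxa7 and Hoxd3 were 0.377 and 0.138, so a difference was not detectable at this depth. Hoxd13, described above, is not part of this list. Of 29 genes of phenotypic modulation only Thbs1 (thrombospondin 1) had one, in both lists (4.76 and 5.04). Of 14 endothelial markers only Mmrn2 (multimerin 2) had one, with 16.3 on 65 fragments in Control (chromosome 16, 10726796 to 10727522) and 5.58 on 6 in Myocd-LSD1. With a reciprocal overlap of 50% Thbs1 and Mmrn2 were unmet. Myog (4.64) stood alone among 12 markers of skeletal and cardiac muscle, in Control, and Cd14 (5.76) among 11 of macrophages, in Myocd-LSD1. After thinning, the chance of a call for the Myog peak was 0.253. Cd14 also had 2 Control peaks within 1 kb of a start site, which lay elsewhere. The 8 fibroblast, 8 neuron and 7 hepatocyte markers had 0 in either list.

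Upstream peaks were found on every autosome and on X in both lists. Chromosome 1 held the most, 187 in Control and 125 in Myocd-LSD1. The share met ran from 22.5% on chromosome 14 (10.8 to 38.5, 40 peaks) to 51.4% on chromosome 15 (34.0 to 68.6, 35 peaks), and these intervals overlap. The mitochondrial sequence gave 3 upstream Control peaks, at ND1, COX1 and COX2, with folds of only 1.11 to 1.69 on 2845 to 5737 fragments.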

How the data were processed

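HA-TET2 CUT&Tag in rat aortic SMC was deposited as 1 annotated list of narrow peaks per group; the 2 Control samples point to one and the same list, and no source used here says whether their reads were pooled. The submitters' processing notes list Bowtie2, deepTools, MACS2, ChIPseeker and build rn6, with neither versions nor settings. The deposited fold enrichment is a ratio per peak from the authors' peak caller, used within its own list. The deposited significance is a −log10 p-value and a −log10 q-value for each peak, from the same caller. The deposited score was not used. Upstream peaks were those that the authors annotated as promoter within 1 kb with a distance below 0. Peak 1 of each list is lost, its name standing in the header line. In all, 45 peak numbers below the highest are absent from the Control list and 23 from the Myocd-LSD1 list.

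Overlaps needed at least 1 bp. Pile-ups were recovered as the whole number of fragments k for which the fold is (k + 1)/(λ + 1) and the p-value the Poisson chance of more than k, which gave 25520 Control and 9520 Myocd-LSD1 peaks. Intervals treat fragments and peaks as independent, although amplified fragments need not be separate molecules. For thinning, Control pile-ups were scaled by 0.362, the ratio of the lowest λ outside the mitochondrial sequence, and the expected share is the mean binomial chance that a thinned peak would still reach the lowest −log10 p of the other list. Promoter windows were matched by symbol, RefSeq accession, gene number or synonym; the restriction to curated coding transcripts was chosen after seeing the match rate. Genes named were the 6 highest of each kind (by fold, or by mean rank for met peaks), the genes with most upstream peaks, all smooth muscle genes with an upstream peak, and up to 4 genes of each other list, on assembled chromosomes without provisional symbols; not every such gene is described, and 1 gene is not reported here. The members and lists were chosen with earlier results of these data known. Steps were checked on simulated data. Python 3.11.15 with scipy 1.17.1 and pandas 2.3.3 was used.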

Additional observations from a re-analysis of the deposited data

How the results depend on the processing

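Of 34 alternative values of the main results, 17 stayed within the main interval (for the ratio of peak numbers, within 1.5 times). With both lists held to a −log10 q of at least 3, 80.4% of upstream Myocd-LSD1 peaks lay on a Control peak and upstream peaks made up 11.8% of that list. The start site then led the upstream side by 11.2 points, the upstream side led the downstream side by 20.8 points, and the observed share was 1.54 times the expected one, above 1. With thinning by strong shared peaks it was 1.10 times, also above 1. With a reciprocal overlap of 50%, 28.0% of upstream Control and 46.0% of upstream Myocd-LSD1 peaks overlapped, the start site led by 12.9 points, and the observed share was 0.590 times the expected one. With the Control list shortened to the length of the other, the shares were 67.0% and 48.3%, the leads were 8.13 and 29.7 points, and 55.6% of Control upstream genes had an upstream Myocd-LSD1 peak. Upstream peaks made up 4.996% of Control when the summit had to lie within 1 kb. When only upstream Myocd-LSD1 peaks counted as meeting, 30.8% of all upstream Control peaks were met. The stricter overlap and the shorter list differ by construction; for the other changes the cause was not tested. The start site led the upstream side, and the upstream side the downstream side, under all 4 alternatives run for them. Of 59 named Control peaks, 9 changed state under reciprocal overlap and 5 under the stricter minimum, which left out 7. No paired analysis was possible because each group had 1 list, and no replicate could be left out. Depth limits what a missing Myocd-LSD1 call shows at peaks of few fragments.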
